A study of Homo sapiens with 10 samples.

Results

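HEK-293 cells, which derive from human embryonic kidney, were compared after transfection with either of 2 small interfering RNAs (siRNAs) against the same long non-coding RNA, LOC440173, which RefSeq now lists as LINC02893. The comparison was made directly between the siRNAs, and its members were the 4 arrays that the labels assign to siRNA 2 and siRNA 1, of 10 arrays in the series. LOC440173 siRNA 2 and LOC440173 siRNA 1 had 2 arrays each, both at a final concentration of 10 nM, and the negative control siRNA at 10 nM had 2 arrays, whose levels are given beside the others. The 4 remaining arrays, of the PAXIP1-AS1 siRNA and its 100 nM control, entered only the estimate of the spread. All cells received a lipid transfection reagent and a siRNA duplex, and total RNA was taken after 48 h, so no group was untransfected. The labels call the 2 arrays of a group biological replicates but do not say how the cultures were separated, and all come from a single cell line.

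An siRNA is a short RNA duplex. Its guide strand is loaded into an Argonaute protein, which cleaves transcripts that pair with the guide along its length and can also repress transcripts that pair with only part of it. Long non-coding RNAs are transcripts without a long open reading frame, and those held in the nucleus are often harder to lower with siRNAs than messenger RNAs. The siRNAs differed in their sequence and, as given below, in how far the target was lowered, and the effects of these cannot be told apart here. The siRNA sequences were not used here, so matches between the siRNAs and the genes below were not tested.

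Levels are the deposited log2 values, and each difference is siRNA 2 minus siRNA 1 on the log2 scale, so that 1 is a 2-fold change. Of 18404 genes, 6836 (37.1%) passed limma's test at an adjusted p of 0.05. Of these, 3348 (18.2% of all genes) were higher and 3488 (19.0%) were lower with siRNA 2. Most of the changes were small, since 4892 of the called genes (71.6%) differed by less than 1.5-fold. A change of 2-fold or more was called in 473 genes (2.57%), of which 275 were higher and 198 lower with siRNA 2. The median difference over all genes was −0.05, and the middle of the distribution was narrow, with 5% of genes below −0.57 and 5% above 0.64. The test called 58.2% of the genes in the upper part of the expression range (above the median of gene means, 7.66) and 16.1% of those below it, and most lists described here hold mainly highly expressed genes. Fitted without the genes below that median, 34.5% of the 9202 left were called higher and 32.9% lower. List counts near these shares are no result about the list. That fit called 67.5% of the 9202 genes in all, against 58.2% in the main fit, from which the list counts come. Replicate arrays correlated at 0.997 with siRNA 2 and 0.998 with siRNA 1 across genes, and arrays of different siRNAs at 0.983 to 0.984. The values of siRNA 2 and siRNA 1 did not overlap in 12225 genes (66.4%). Exact permutation of 2 arrays against 2 cannot give a p below 0.333, so every call rests on the spread pooled over genes and over all 5 groups. Among the 11568 genes not called, 10864 (93.9%) had a 95% confidence interval that lay within 1.5-fold. In bulk RNA a change in the share of cells and a change in RNA per cell cannot be told apart.

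**Figure D1:**
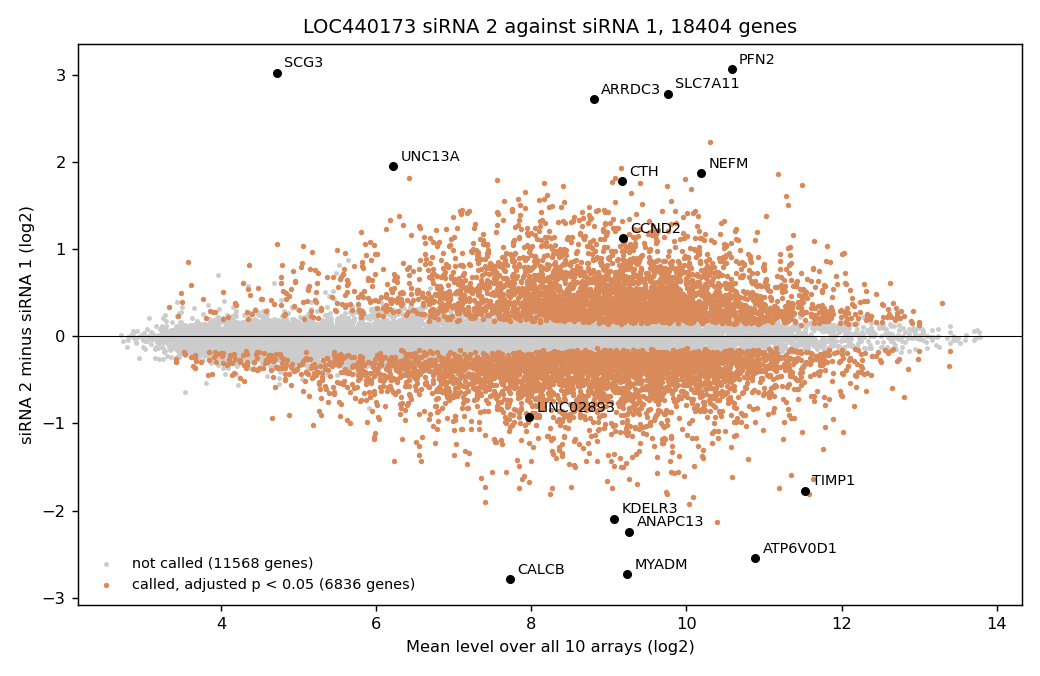
The difference between siRNA 2 and siRNA 1 (log2, y axis) is plotted against the mean level over all 10 arrays (log2, x axis) for 18404 genes. Each point is a gene, 6836 called genes are coloured, and labelled genes are described in the text. PFN2 at 3.06 and CALCB at −2.79 lie near the extremes, and LINC02893 lies at −0.93.

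The targeted transcript was lower with siRNA 2 than with siRNA 1. LINC02893 read 6.71 and 6.59 with siRNA 2, 7.72 and 7.43 with siRNA 1, and 8.48 and 8.60 with the 10 nM control. The groups did not overlap, and both siRNAs lay below the control. The difference between siRNA 2 and siRNA 1 was −0.93 (SE 0.099, adjusted p = 0.000177), which is 1.90-fold lower with siRNA 2, with a 95% interval of −1.16 to −0.70. The call was lost when a change above 1.5-fold was required (adjusted p = 0.0977 over all genes), although the gene's own interval lay beyond 1.5-fold. Against the control, the difference was −1.89 for siRNA 2 and −0.96 for siRNA 1, both comparisons using the same control arrays.

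LINC02893 lies on chromosome 9, and of its 3 annotated neighbours on each side that were measured, ISCA1 alone was called. Its value is uncertain, because the probe set used could not be placed on the genome and RefSeq lists 7 ISCA1 pseudogenes elsewhere. ISCA1, which helps assemble mitochondrial iron-sulfur proteins, read 10.82 and 11.06 with siRNA 2, 9.98 and 10.08 with siRNA 1, and 10.41 and 10.66 with the control. It was higher with siRNA 2 by 0.91 (SE 0.113, adjusted p = 0.000405), and by 0.45 (adjusted p = 0.00217) in the other of its 2 probe sets. The nearer neighbours on that side differed by −0.15 for GAS1 (adjusted p = 0.105), a growth arrest protein of the cell surface, and by −0.00 for TUT7 (adjusted p = 0.996), which adds uridines to RNA ends. On the other side, NFYCP2, a pseudogene, differed by −0.25 (adjusted p = 0.0536), LINC02872 by −0.33 (adjusted p = 0.0678) and DAPK1, a death-associated kinase, by 0.04 (adjusted p = 0.660). None of these 5 passed the test here.

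The largest rises were in genes of several functions. PFN2, a profilin that binds actin monomers, read 11.19 and 11.30 with siRNA 2, 8.10 and 8.27 with siRNA 1, and 11.07 and 11.11 with the control. It was 8.36-fold higher with siRNA 2 (3.06 on the log2 scale, SE 0.072, adjusted p = 6.4e-07), and the siRNA 2 arrays lay close to the control while the siRNA 1 arrays lay far below both. SLC7A11, the cystine importer of the plasma membrane, read 10.36 and 10.43 with siRNA 2, 7.62 and 7.60 with siRNA 1, and 9.89 and 10.09 with the control. It was 6.90-fold higher with siRNA 2 (2.79, SE 0.078, adjusted p = 1.5e-06), and the control lay between the siRNAs. ARRDC3, an arrestin-like adaptor for ubiquitin ligases, read 10.12 and 10.31 with siRNA 2, 7.60 and 7.39 with siRNA 1, and 8.65 and 8.83 with the control. Its difference was 2.72 (SE 0.123, adjusted p = 3.7e-06), and siRNA 2 stood above the control and siRNA 1 below it. UNC13A, which primes synaptic vesicles for release, read 7.69 and 8.03 with siRNA 2, 5.95 and 5.86 with siRNA 1, and 5.71 and 5.80 with the control. Its difference was 1.95 (SE 0.101, adjusted p = 5.9e-06), and here siRNA 1 lay near the control and siRNA 2 above both.

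The rest of the 15 largest rises fell between 1.76 and 2.23. BTBD1, a BTB-domain protein, differed by 2.23 and GDE1, a glycerophosphodiesterase, by 1.93. Genes with neuronal roles were NEFM, a neurofilament subunit, at 1.88, and NETO2, an auxiliary subunit of kainate receptors, at 1.86. Carriers or receptors of the cell surface were the zinc importer SLC39A1 at 1.82, the taurine carrier SLC6A6 at 1.78 and LRP8, a receptor for reelin and apolipoprotein E, at 1.77. The others were PRKAB2, a regulatory subunit of AMP-activated kinase, at 1.80, the galactosyltransferase B3GALT1 at 1.80, CTH, which makes cysteine from cystathionine, at 1.78, and LONRF2 at 1.76. Their siRNA 2 and siRNA 1 arrays did not overlap, which the choice of named genes required. NETO2 read 11.60 and 11.66 with siRNA 2, 9.74 and 9.79 with siRNA 1, and 11.44 and 11.55 with the control. SLC39A1 read 9.38 and 9.40 with siRNA 2, 7.59 and 7.54 with siRNA 1, and 9.48 and 9.50 with the control. In both, the siRNA 1 arrays were the ones far from the control. SCG3, a secretory granule protein named after its values were seen, lay below the level required of named genes and read 6.93 and 7.30 with siRNA 2, 4.07 and 4.11 with siRNA 1, and 4.36 and 3.91 with the control, a difference of 3.03 (adjusted p = 1.1e-05).

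Among the falls, CALCB, which encodes a calcitonin gene-related peptide, read 5.93 and 6.15 with siRNA 2, 8.81 and 8.84 with siRNA 1, and 7.93 and 7.92 with the control. Its difference was −2.79 (SE 0.081, adjusted p = 1.5e-06), with siRNA 2 below the control and siRNA 1 above it. MYADM, a membrane protein of cholesterol-rich domains, read 7.29 and 7.27 with siRNA 2, 10.04 and 9.98 with siRNA 1, and 9.62 and 9.60 with the control. Its difference was −2.73 (SE 0.047, adjusted p = 1.8e-07). ATP6V0D1, a subunit of the proton pump of lysosomes and endosomes, read 8.91 and 8.90 with siRNA 2, 11.43 and 11.47 with siRNA 1, and 11.43 and 11.42 with the control. Its difference was −2.55 (SE 0.046, adjusted p = 1.8e-07), and the siRNA 1 arrays lay at the control level. ANAPC13, a small subunit of the anaphase-promoting complex, read 7.43 and 7.52 with siRNA 2, 9.71 and 9.73 with siRNA 1, and 9.68 and 9.72 with the control. Its difference was −2.24 (SE 0.051, adjusted p = 6.4e-07), again with siRNA 1 at the control level.

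The other falls among the 15 largest ranged from −2.13 to −1.74. DNAJC8, a J-domain protein of the splicing machinery, differed by −2.13, and its siRNA 2 arrays were unequal at 8.58 and 9.03, against 10.90 and 10.97 with siRNA 1. Proteins of the secretory route were KDELR3, a receptor that returns proteins to the endoplasmic reticulum, at −2.09, and SPCS3, a subunit of signal peptidase, at −1.85. Secreted or membrane proteins were TIMP1, an inhibitor of matrix metalloproteinases, at −1.77, IFITM1, which restricts the entry of viruses, at −1.81, the lysosomal transporter MFSD1 at −1.79 and TMEM179B at −1.81. TES, a protein of focal adhesions, fell by 1.93. FAXDC2 differed by −1.90, the metal-binding protein MT1F by −1.81 and GLRX, a glutaredoxin that reduces protein thiols, by −1.74. TIMP1 read 10.04 and 10.12 with siRNA 2, 11.83 and 11.87 with siRNA 1, and 11.94 and 11.87 with the control. FAXDC2 read 6.72 and 6.83 with siRNA 2, 8.68 and 8.67 with siRNA 1, and 7.34 and 7.30 with the control. In TIMP1 it was siRNA 2 that stood apart from the control, and in FAXDC2 the control lay between the siRNAs. IFI35, an interferon-induced protein, averaged 6.92 ± 0.11 with siRNA 2, 8.65 ± 0.011 with siRNA 1 and 7.29 ± 0.008 with the control (SD, n = 2 each), with a difference of −1.73 that passed limma's test (adjusted p = 2.6e-06). EN2, a homeobox transcription factor, read 10.11 and 10.12 with siRNA 2, 9.08 and 8.72 with siRNA 1, and 9.82 and 9.73 with the control (difference 1.22, adjusted p = 6.0e-05).

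**Figure D2:**
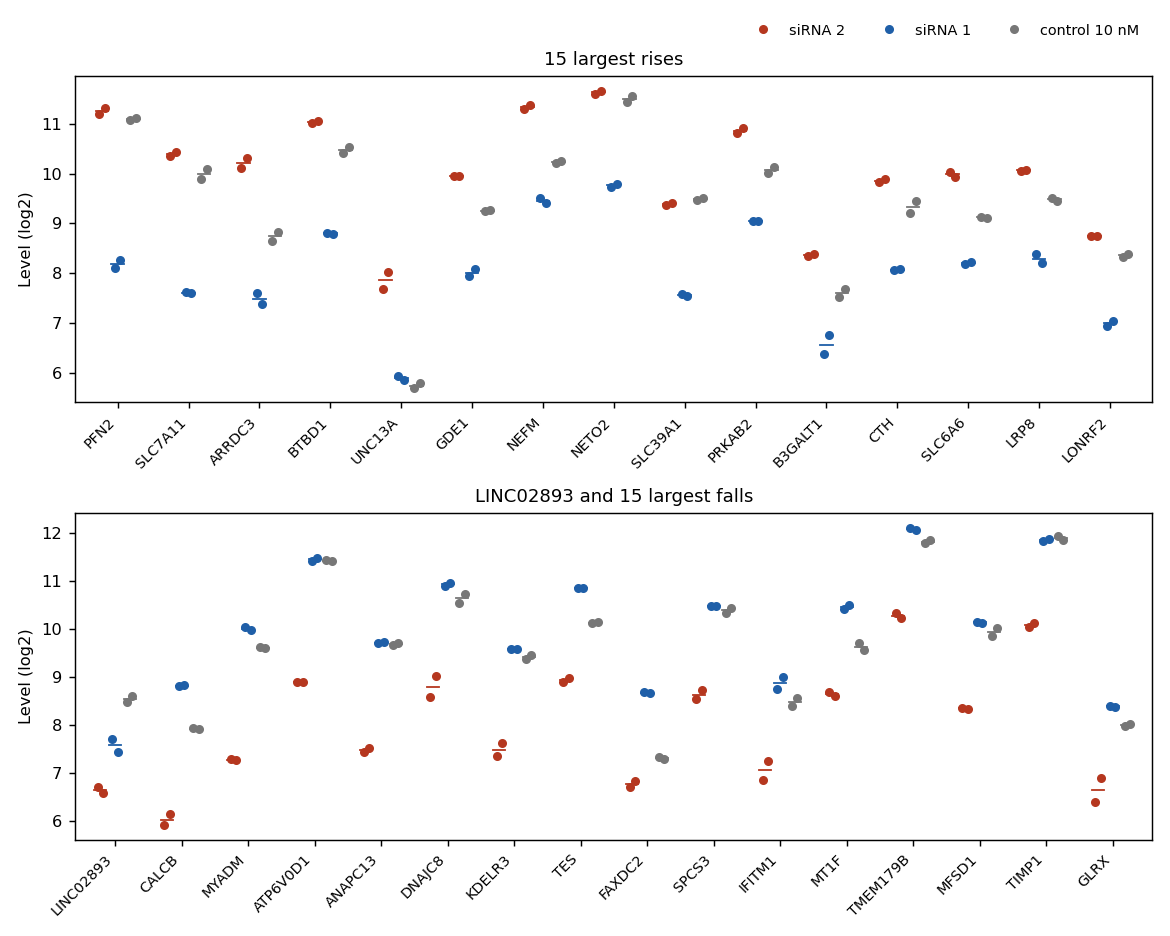
Levels (log2, y axis) on each array are shown for the 15 largest rises (upper panel) and for LINC02893 and the 15 largest falls (lower panel), with siRNA 2, siRNA 1 and the 10 nM control from left to right for each gene. Points are single arrays (n = 2 each) and short lines are group means. In PFN2 the siRNA 2 and control arrays lie above 11 while siRNA 1 lies at 8.10 and 8.27, and in ATP6V0D1 the siRNA 1 and control arrays lie above 11 while siRNA 2 lies at 8.91 and 8.90.

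Targets of ATF4 were mostly higher with siRNA 2. ATF4 is a transcription factor made when translation initiation is curbed by amino acid shortage or endoplasmic reticulum stress, and it turns on amino acid synthesis, transport and transfer RNA charging. Of 30 measured targets 17 were higher and 3 lower, with a median difference of 0.34 against −0.05 over all genes. STC2, a secreted glycoprotein, read 9.10 and 9.14 with siRNA 2, 7.70 and 7.68 with siRNA 1, and 8.71 and 8.73 with the control (difference 1.43, SE 0.047, adjusted p = 1.8e-06). ASNS, which makes asparagine, read 10.25 and 10.30 with siRNA 2, 8.91 and 9.04 with siRNA 1, and 9.89 and 10.00 with the control (difference 1.31, SE 0.063, adjusted p = 4.6e-06). MARS1, the methionyl-tRNA synthetase, read 11.13 and 11.16 with siRNA 2, 10.50 and 10.50 with siRNA 1, and 11.11 and 11.10 with the control (difference 0.65, adjusted p = 2.1e-05). In these 3 genes the siRNA 1 arrays were the lowest, and in MARS1 the siRNA 2 arrays lay near the control. CTH, described above, belongs to the same list.

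The promoters of ASNS and MARS1 are printed because they hold the ATF4 element, TGATGNAA, and because the genes are the list's called members with the smallest p that do. The sequences run from 250 bases before to 50 after the start that RefSeq annotates in GRCh38.p14, 5′ to 3′ on the gene's strand. Capitals mark the element in ASNS, 68 bases before the start, and its reverse complement in MARS1, 4 bases before the start.
ASNS promoter, chr7:97872359-97872658, minus strand: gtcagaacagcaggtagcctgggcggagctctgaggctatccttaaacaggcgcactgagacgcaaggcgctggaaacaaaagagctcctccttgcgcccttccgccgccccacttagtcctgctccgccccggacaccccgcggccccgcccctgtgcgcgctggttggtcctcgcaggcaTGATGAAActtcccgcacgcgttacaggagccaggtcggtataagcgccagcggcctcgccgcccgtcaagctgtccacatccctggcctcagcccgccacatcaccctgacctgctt
MARS1 promoter, chr12:57487818-57488117, plus strand: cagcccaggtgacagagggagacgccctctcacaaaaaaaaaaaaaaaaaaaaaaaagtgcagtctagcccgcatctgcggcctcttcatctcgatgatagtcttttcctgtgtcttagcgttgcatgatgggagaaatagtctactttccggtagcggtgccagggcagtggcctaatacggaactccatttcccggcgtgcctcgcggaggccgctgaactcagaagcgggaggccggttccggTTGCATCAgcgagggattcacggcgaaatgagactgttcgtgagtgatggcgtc
Searched on both strands, the element stood in 8 of the 25 ATF4-list promoters available (32%). The list was made of ATF4 targets, so this share describes the list and says nothing about the siRNAs. Over the whole comparison the element was in 1.91% of the promoters of genes called higher (53 of 2777). It was in 1.95% of those of genes called lower (55 of 2827) and in 2.54% of those of all genes tested (361 of 14228).

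Amino acid transporters and glutathione genes followed the same direction, and SLC7A11 belongs to both lists. Of 22 amino acid transporters 13 were higher and 4 lower with siRNA 2, with a median of 0.35. SLC1A3, a glutamate carrier, read 9.86 and 9.89 with siRNA 2, 8.98 and 8.93 with siRNA 1, and 9.47 and 9.46 with the control (difference 0.92, adjusted p = 5.9e-06). SLC7A2, a carrier of arginine and lysine, differed by 1.18 (adjusted p = 1.2e-05) and SLC1A5, a glutamine carrier, by 0.83 (adjusted p = 9.15e-06). Of 24 genes of glutathione metabolism or driven by NRF2, the transcription factor of the antioxidant response, 13 were higher and 4 lower, with a median of 0.27. SRXN1, which repairs peroxiredoxins, read 9.48 and 9.56 with siRNA 2, 8.18 and 8.26 with siRNA 1, and 8.98 and 8.96 with the control (difference 1.30, adjusted p = 3.1e-06). GCLC, the catalytic subunit of the enzyme that starts glutathione synthesis, differed by 0.78 and TALDO1, of the pentose phosphate pathway, by 0.62. In SLC1A3 and SRXN1 the control lay between the siRNAs.

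Genes of the lysosome were mostly lower with siRNA 2. Lysosomes break down macromolecules with acid hydrolases, and a proton pump, the V-ATPase, acidifies them. Of 24 lysosomal enzymes and membrane proteins 15 were lower and 5 higher, with a median of −0.32. LAMP1, a major glycoprotein of the lysosomal membrane, read 8.90 and 8.98 with siRNA 2, 10.19 and 10.22 with siRNA 1, and 9.95 and 9.94 with the control (difference −1.26, SE 0.050, adjusted p = 2.9e-06). NEU1, a sialidase, read 8.53 and 8.53 with siRNA 2, 9.83 and 9.85 with siRNA 1, and 9.66 and 9.52 with the control (difference −1.31, adjusted p = 4.0e-06). In both genes siRNA 2 was the lowest group by about 1 on the log2 scale. CTSB, a cysteine protease, differed by −1.02, and TPP1, a peptidase that trims tripeptides, by −0.72. Of 17 V-ATPase genes 8 were lower and 4 higher, with a median of −0.13, and the members did not move together. ATP6V0D1 has been described above and ATP6V1B2, a subunit of the part that hydrolyses ATP, differed by −0.66. The accessory subunits ATP6AP1 and ATP6AP2 were higher with siRNA 2 by 1.73 and 0.77. ATP6AP1 read 11.97 and 11.93 with siRNA 2, 10.22 and 10.20 with siRNA 1, and 11.81 and 11.66 with the control, so that siRNA 1 stood apart. Of 25 autophagy genes 9 were lower and 4 higher, with a median of −0.12. Among the proteins that coat autophagosomes, GABARAPL2 differed by −1.30 (adjusted p = 2.2e-06) and GABARAPL1 by 0.99 (adjusted p = 1.6e-05), in opposite directions.

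**Figure D3:**
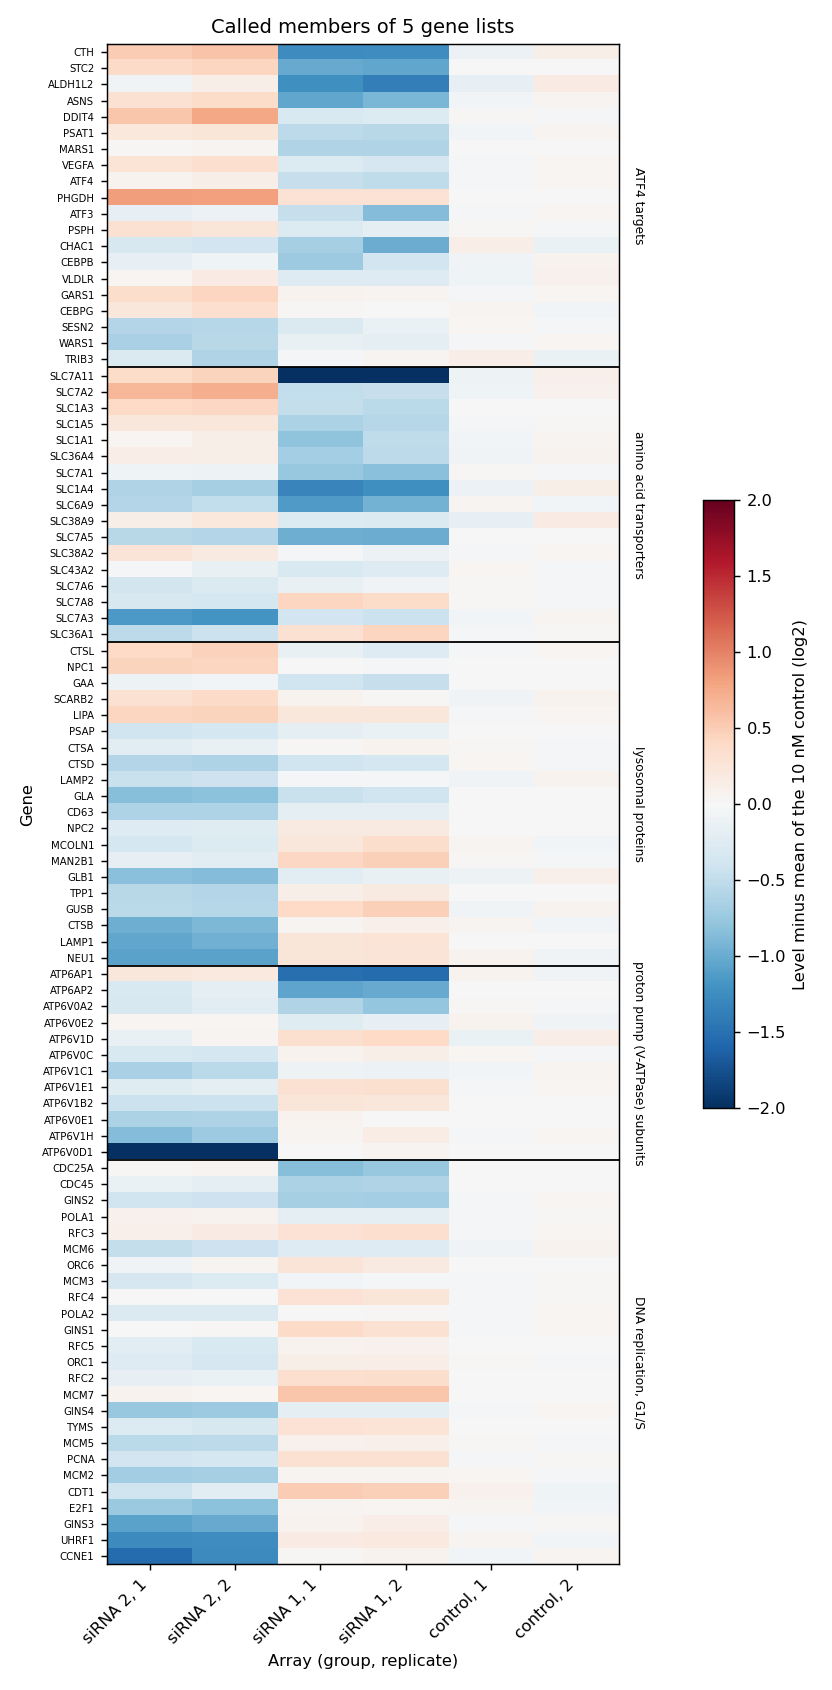
Each row is a called member of 5 lists (ATF4 targets, amino acid transporters, lysosomal proteins, V-ATPase subunits, and DNA replication and G1/S genes), and each column an array of siRNA 2, siRNA 1 or the 10 nM control. Colour gives the level minus the mean of the control arrays (log2), cut at 2 in both directions. SLC7A11 is dark blue with siRNA 1 alone and ATP6V0D1 with siRNA 2 alone.

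DNA replication genes were mostly lower with siRNA 2. They include the helicase, clamp and origin factors that cells make as they pass from G1 into S phase, many under the E2F transcription factors. Of 35 genes 21 were lower and 4 higher, with a median of −0.25. UHRF1, which recruits the maintenance DNA methyltransferase, read 8.73 and 8.76 with siRNA 2, 10.16 and 10.20 with siRNA 1, and 10.05 and 9.95 with the control (difference −1.43, SE 0.060, adjusted p = 3.2e-06). UHRF1 had 2 probe sets, and its difference was −0.78 as the mean of both, so the other probe set differed less. CCNE1, the cyclin that drives entry into S phase, averaged 8.13 ± 0.18 with siRNA 2, 9.58 ± 0.031 with siRNA 1 and 9.54 ± 0.081 with the control (SD, n = 2 each). Its siRNA 2 arrays were both lower than every siRNA 1 and control array (difference −1.45, adjusted p = 1.0e-05). GINS3, a subunit of the replicative helicase, differed by −1.14 (adjusted p = 3.7e-06). In UHRF1 and CCNE1 siRNA 1 lay near the control and siRNA 2 below. CDC25A, a phosphatase that activates cyclin-dependent kinases, went the other way, with 10.54 and 10.58 with siRNA 2, 9.67 and 9.77 with siRNA 1, and 10.51 and 10.53 with the control (difference 0.84, adjusted p = 1.3e-05).

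UHRF1, GINS3 and CDC25A are also the called members of that list with the smallest p whose promoters hold an E2F element, TTTGGCGC or TTTCCCGC, and their promoters are printed. E2F1, the next such member, differed by −0.83 and is not printed. A part of E2F in these differences was not tested. The window, build and direction are as above, with the element, or its reverse complement, in capitals.
UHRF1 promoter, chr19:4909251-4909550, plus strand: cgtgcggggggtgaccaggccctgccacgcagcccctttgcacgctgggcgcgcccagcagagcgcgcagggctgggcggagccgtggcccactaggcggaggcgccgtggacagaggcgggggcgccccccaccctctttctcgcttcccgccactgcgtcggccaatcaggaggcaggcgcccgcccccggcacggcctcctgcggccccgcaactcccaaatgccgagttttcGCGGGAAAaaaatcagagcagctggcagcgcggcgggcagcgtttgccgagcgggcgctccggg
GINS3 promoter, chr16:58392221-58392520, plus strand: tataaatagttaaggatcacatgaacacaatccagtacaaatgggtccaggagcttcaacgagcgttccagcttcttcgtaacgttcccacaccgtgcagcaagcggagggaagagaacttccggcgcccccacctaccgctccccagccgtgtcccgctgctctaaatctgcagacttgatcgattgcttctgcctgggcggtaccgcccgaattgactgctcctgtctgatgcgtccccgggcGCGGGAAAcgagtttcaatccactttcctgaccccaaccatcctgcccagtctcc
CDC25A promoter, chr3:48188368-48188667, minus strand: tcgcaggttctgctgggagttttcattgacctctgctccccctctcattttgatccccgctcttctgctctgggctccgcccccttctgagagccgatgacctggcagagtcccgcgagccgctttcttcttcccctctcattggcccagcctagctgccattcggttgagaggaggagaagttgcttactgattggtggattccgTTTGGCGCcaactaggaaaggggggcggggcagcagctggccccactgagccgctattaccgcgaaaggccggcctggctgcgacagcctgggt
On either strand an element stood in 17 of 30 replication-list promoters (56.7%). Many genes of the list are known to be under E2F, so this share says nothing about the siRNAs. Over the whole comparison an element was in 3.02% of the promoters of genes called higher (84 of 2777). It was in 4.53% of those of genes called lower (128 of 2827) and in 3.11% of those of all genes tested (442 of 14228).

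Between the siRNAs, mitotic genes leaned the same way by a smaller amount. Against the 10 nM control their median was 0.23 with siRNA 2 and 0.24 with siRNA 1. For the replication genes it was −0.27 with siRNA 2 and 0.08 with siRNA 1. Of 29 measured, 16 were lower and 3 higher with siRNA 2, with a median of −0.20, and without the first siRNA 1 array the lower count was 9, without the first siRNA 2 array 10, and with either 10 nM control array left out the higher count was 5. BIRC5, a subunit of the chromosomal passenger complex, read 8.83 and 8.85 with siRNA 2, 10.07 and 10.07 with siRNA 1, and 9.86 and 9.85 with the control (difference −1.23, adjusted p = 2.6e-06). AURKA, a spindle pole kinase, differed by −0.92, CDC25B, a phosphatase, by −0.84 and ESPL1, the protease that cuts cohesin, by −0.55. The motif TTTGAA, the core of the cell cycle homology region of late cell cycle promoters, was in 13 of 24 promoters of the list (54.2%). The list was made of late cell cycle genes, so this share says nothing about the siRNAs. Over the whole comparison the motif was in 10.0% of the promoters of genes called higher (279 of 2777). It was in 9.52% of those of genes called lower (269 of 2827) and in 11.9% of those of all genes tested (1694 of 14228). Of 14 subunits and activators of the anaphase-promoting complex, which marks mitotic proteins for destruction, 6 were lower and 3 higher (median −0.05). Besides ANAPC13, the activator FZR1 differed by −0.93, while ANAPC15 and ANAPC10 differed by 0.52 and 0.72.

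Among D-type cyclins, G1 kinases and their inhibitors, 3 of 14 were higher and 1 was lower with siRNA 2, with a median of 0.02. CCND2, a D-type cyclin, read 8.23 and 8.37 with siRNA 2, 7.21 and 7.13 with siRNA 1, and 10.05 and 10.14 with the control. Both siRNAs lay far below the control, and siRNA 2 was higher than siRNA 1 by 1.13 (SE 0.069, adjusted p = 1.2e-05). CCND3 showed the same order, with 9.25 and 9.26 with siRNA 2, 8.54 and 8.57 with siRNA 1, and 9.78 and 9.73 with the control (difference 0.70). CDKN1B, the kinase inhibitor p27, was the lower gene, with 8.35 and 8.38 with siRNA 2, 9.46 and 9.36 with siRNA 1, and 8.94 and 8.95 with the control (difference −1.05, adjusted p = 5.4e-06). RB1, the retinoblastoma protein that holds E2F in check, differed by 0.34. Of 27 targets of p53 13 were lower and 4 higher (2 higher without the second siRNA 1 array), with a median of −0.17. Together 63% were called, against 58.2% of all genes in the upper part of the expression range, where 24 of the 27 lay. TNFRSF10D, a decoy receptor for the death ligand TRAIL, read 7.04 and 6.88 with siRNA 2, 8.67 and 8.71 with siRNA 1, and 9.29 and 9.17 with the control (difference −1.73, adjusted p = 2.6e-06). ZMAT3, an RNA-binding protein, differed by 0.69, CCNG1 by 0.48 and TP53I3, an oxidoreductase, by −0.71. Both directions were therefore present among p53 targets.

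Histone genes of the replication-dependent clusters were mostly not called, with 7 of 34 lower and 3 higher and a median of 0.04. The lower count was 4 without the first array of siRNA 1 or of siRNA 2, and the higher count was 1 when any array of siRNA 1, of the 100 nM control or of the PAXIP1-AS1 siRNA, or the second array of siRNA 2, was left out. H2BC14 read 8.05 and 8.18 with siRNA 2, 6.94 and 6.81 with siRNA 1, and 6.48 and 6.76 with the control (difference 1.25, adjusted p = 5.1e-05), and the linker histone H1-3 differed by −0.54. These genes have near-identical copies, so their single values are uncertain.

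Chaperones and coats of the endoplasmic reticulum (ER) moved in both directions. Of 24 genes of the unfolded protein response and ER folding, 9 were higher and 7 lower, with a median of 0.02. HYOU1, an ER chaperone of the Hsp70 family, read 8.53 and 8.57 with siRNA 2, 10.10 and 10.14 with siRNA 1, and 10.12 and 10.13 with the control (difference −1.57, adjusted p = 1.6e-06). PDIA6, a disulfide isomerase, went the other way, with 11.78 and 11.81 with siRNA 2, 10.98 and 11.03 with siRNA 1, and 11.75 and 11.77 with the control (difference 0.79, adjusted p = 1.3e-05). The group that stood apart from the control was siRNA 2 in HYOU1 and siRNA 1 in PDIA6. SYVN1, a ubiquitin ligase of ER-associated degradation, differed by −0.64 and HERPUD1, its partner, by 0.61. Of 24 coat and retrieval proteins of ER-to-Golgi traffic 8 were higher and 7 lower, with a median of 0.11. TMED10, a cargo receptor, differed by 0.73, the GTPase SAR1A by 0.83 and the coat subunit COPG1 by 0.73, against −2.09 for KDELR3.

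Extracellular matrix and TGF-beta genes were called lower in 12 of 31 and higher in 5, with a median of −0.14. FN1, fibronectin, read 7.79 and 7.91 with siRNA 2, 8.84 and 8.91 with siRNA 1, and 9.53 and 9.57 with the control (difference −1.03, adjusted p = 9.8e-06). ACTA2, smooth muscle actin, showed the same order of groups and differed by −0.91. LAMC1, a laminin chain, went the other way, with 10.91 and 10.92 with siRNA 2, 9.82 and 9.76 with siRNA 1, and 9.47 and 9.49 with the control (difference 1.12, adjusted p = 5.9e-06). Of 27 actin regulators 9 were lower and 4 higher (median −0.06). PFN2 and the formin DIAPH1, which elongates actin filaments, were higher by 3.06 and 1.03, and VCL, vinculin of focal adhesions, differed by −0.55. Among 24 Wnt and Notch target genes 7 were lower and 4 higher (median −0.14), so that 45.8% were called, against 37.1% of all genes. The Notch-driven repressors HEY1 and HEY2 differed by −0.75 and 0.82, the receptor NOTCH1 by 0.59 and RNF43, a ligase that removes Wnt receptors, by −0.95.

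Energy and sterol metabolism had no common direction. Of 30 glycolysis and hypoxia genes 8 were higher and 11 lower (median −0.08), and the lower count was 6 without the first siRNA 1 array and 7 without the second. HK2, a hexokinase, read 9.60 and 9.57 with siRNA 2, 8.19 and 8.27 with siRNA 1, and 9.48 and 9.53 with the control (difference 1.35, adjusted p = 2.6e-06). AK4, a mitochondrial adenylate kinase, differed by 1.55, while PGK1 and ALDOC, enzymes further along glycolysis, differed by −0.95 and −1.01. Of 19 cholesterol genes 8 were higher and 5 lower (median 0.14). The lower count was 3 when any array of siRNA 1, of the 100 nM control or of the PAXIP1-AS1 siRNA, or the first array of siRNA 2, was left out. The synthesis enzymes SQLE, CYP51A1 and LSS differed by 0.91, 0.70 and 0.68, and INSIG1, which retains the sterol sensor in the ER, by −0.54. Respiratory chain subunits were higher in 10 of 29 and lower in 5 (median 0.10), with 6 higher when either siRNA 1 array or the second siRNA 2 array was left out. Together 51.7% were called, against 58.2% of all genes in the upper part of the expression range, where all 29 lay. NDUFB5, a subunit of complex I, read 9.11 and 9.14 with siRNA 2, 10.28 and 10.18 with siRNA 1, and 8.88 and 8.98 with the control (difference −1.10, adjusted p = 9.0e-06), so that siRNA 1 was the high group.

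Interferon-response genes were called lower in 9 of 36 and higher in 3, with a median of −0.18. The 33.3% called in either direction were near the 37.1% of all genes. Only 8 of the 36 lay at or above the median level of all genes. In the separate fit without the genes below that level, those 8 had a median of 0.19, with 3 lower and 4 higher. Besides IFITM1 and IFI35, IFIT1, which binds viral RNA ends, read 5.39 and 5.17 with siRNA 2, 6.37 and 6.55 with siRNA 1, and 5.98 and 6.14 with the control (difference −1.18, adjusted p = 5.3e-05), and IFI6 differed by −0.66. The control lay between the siRNAs in IFIT1. Immediate early genes and feedback regulators of ERK signalling were mostly not called, with 5 of 26 higher and 3 lower (1 lower without the second siRNA 2 array) and a median of 0.02. SPRED1, an inhibitor of Ras signalling, differed by 1.25. The proteins that process and use small RNAs, the machinery siRNAs themselves need, were higher in 11 of 19 and lower in 4, with a median of 0.19. TNRC6C, the Argonaute partner in silencing, read 9.12 and 9.08 with siRNA 2, 8.36 and 8.32 with siRNA 1, and 9.19 and 9.16 with the control (difference 0.76, adjusted p = 2.7e-05). TARBP2 and PRKRA, related partners of Dicer, differed by −0.82 and 0.66, and DROSHA, which cuts primary microRNAs, by −0.55.

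Genes of nerve cells were called higher more often than lower. Of 31 axon guidance ligands and receptors 17 were higher and 3 lower, with a median of 0.24. The lower count was 5 with either 10 nM control array left out and 1 without the second siRNA 1 array. ROBO1, a Slit receptor, read 11.79 and 11.75 with siRNA 2, 11.28 and 11.22 with siRNA 1, and 11.05 and 11.09 with the control (difference 0.52, adjusted p = 0.000102). The semaphorin receptors PLXNA1 and PLXNA2 differed by 0.60 and 0.58 and the ephrin EFNA5 by 0.41. Of 26 genes of presynaptic vesicle release 11 were higher and 5 lower, with a median of 0.12. UNC13B, a relative of UNC13A, differed by 0.75, whereas the vesicle proteins SV2A and SYT1 differed by −1.35 and −0.72. SV2A read 6.88 and 7.25 with siRNA 2, 8.41 and 8.42 with siRNA 1, and 8.57 and 8.72 with the control. Among arrestins and their relatives, 3 of 6 were higher and 1 lower (median 0.41). ARRB1, a beta-arrestin, and TXNIP, which binds thioredoxin, differed by 0.79 and 0.73, and ARRDC4 by −0.91, opposite to ARRDC3.

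**Figure D4:**
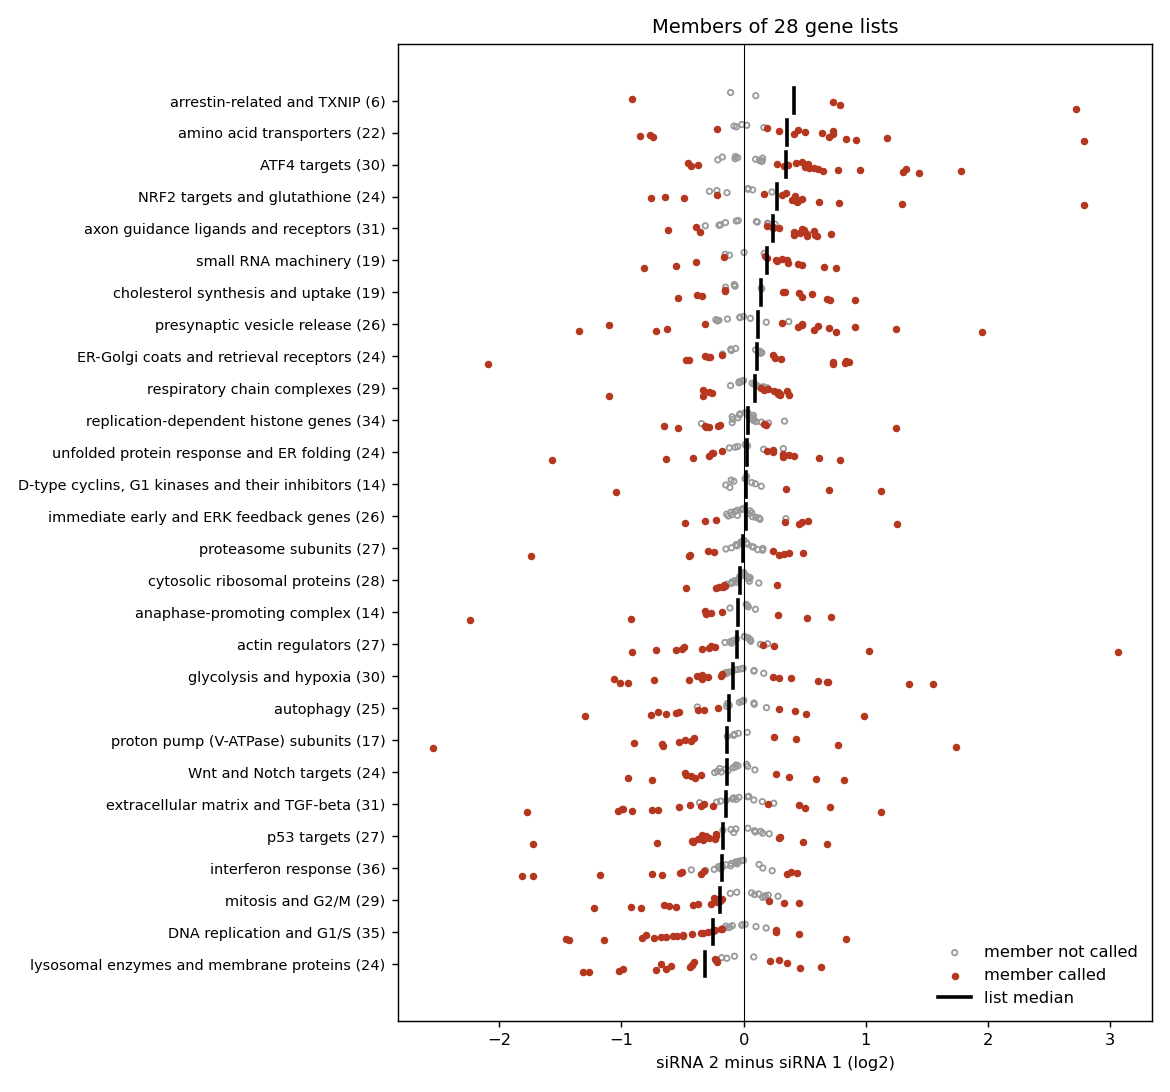
The difference between siRNA 2 and siRNA 1 (log2, x axis) is shown for each measured member of 28 gene lists (y axis, number of members in parentheses), ordered by the list median. Filled points were called, open points were not, and the vertical bar is the list median, which ranges from 0.41 for arrestins and their relatives to −0.32 for lysosomal proteins.

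Subunits of large housekeeping machines moved little on balance. Of 28 cytosolic ribosomal proteins 1 was higher and 6 were lower (median −0.03), with 1 to 3 lower when an array of either LOC440173 siRNA was left out and 0 higher when any array of siRNA 1, of the 10 nM control or of the PAXIP1-AS1 siRNA, or the second array of siRNA 2, was left out. Ribosomal protein genes have many processed copies in the genome, so their single values are uncertain. Of 27 proteasome subunits 5 were higher and 5 lower (median −0.01), with 3 lower without the second array of either LOC440173 siRNA. PSMB3, a beta subunit of the core particle, stood apart with 9.74 and 9.83 with siRNA 2, 11.54 and 11.52 with siRNA 1, and 11.54 and 11.55 with the control (difference −1.74, adjusted p = 1.5e-06). PSMB6, a catalytic subunit of the same core particle, differed by −0.45.

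Marker lists of cell types were compared between the siRNAs, which cannot establish the identity of the line. Arrays carry no detection call, so absence could not be read from the levels. Of 14 genes typical of HEK-293 cells 5 were higher and 5 lower (median −0.06, or 0.20 without genes below the median level). NEFM is one of them, CDH2, N-cadherin, differed by 0.59, the keratin KRT8 by −0.86 and SALL2 by −0.55. Of 70 markers of 7 other cell types 3 were higher and 7 lower. The lower count was 2 without the first siRNA 1 array, 3 without the second siRNA 2 array and 11 without the first siRNA 2 array. The 2 largest differences were in kidney genes, LRP2, the tubular endocytic receptor megalin, at 1.37 and PODXL, a sialomucin of podocytes, at 1.54. PODXL read 9.33 and 9.28 with siRNA 2, 7.77 and 7.77 with siRNA 1, and 9.58 and 9.53 with the control. The rest of both lists mostly did not follow these genes. Apart from LRP2, 12 of 14 kidney tubule markers lay below 0, and apart from PODXL, 6 of 7 podocyte markers did. PTPRO, a podocyte marker, was called higher by 0.20, a call lost under some alternatives. Medians of the whole lists were −0.13 for 15 kidney tubule and −0.10 for 8 podocyte markers. The summed level of the podocyte markers, on the linear scale, was 1222 and 1309 with siRNA 2, against 894 and 895 with siRNA 1, but without PODXL it averaged 629.3 with siRNA 2 and 676.2 with siRNA 1. That of the kidney tubule markers was 1602 and 1726 with siRNA 2, against 1442 and 1464 with siRNA 1, and without LRP2 it averaged 1051.9 with siRNA 2 and 1216.1 with siRNA 1. No marker is at 0 on these arrays, and the part of such cells in the other results was not tested.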

How the data were processed

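The authors deposited 1 log2 value per probe set and array, made with RMA (background correction, quantile normalization and summary) per the submitters' processing notes, which also name limma without a version. Neither array definition file nor genome build is given in the sources used here, and scanner intensities were not used. Of 32321 probe sets, 19158 carried 1 gene symbol, 1388 several and 11775 none in the platform annotation, which can be old. Each of 18404 genes kept its probe set with the highest mean over the 10 arrays, and 18376 gene IDs matched RefSeq. Array medians lay between 7.06 and 7.12, no columns were identical, and the number of arrays limits the precision.

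With limma 3.58.1 in R 4.3.3, a mean per group was fitted to all 10 arrays, siRNA 2 minus siRNA 1 was tested two-sided with eBayes, and p was adjusted by Benjamini-Hochberg over all genes. The 5 residual degrees of freedom were joined by a prior of 2.87, and the scripts were tested on simulated data. Genes named were the 15 largest rises and falls among called genes without overlap and with the higher mean at or above 7.66, the target and 3 neighbours on each side, up to 4 members of each list with the smallest p, and SLC7A11, IFI35, FAXDC2, ARRDC3, MYADM, ISCA1 and EN2. The comparison, the lists and these genes were chosen with earlier results of these data known. The p-values measure the spread between cultures of a single line. Promoters were matched by gene ID for 14228 genes (77.3% of those tested, 82.9% of those called higher and 81.0% of those called lower). Motif shares are set beside those of these 14228 genes. Another planned motif, TCACGTGA, the core of the lysosomal CLEAR element, was in 2.79% of promoters of genes called lower (79 of 2827). It was in 1.66% of those of genes called higher (46 of 2777) and in 1.48% of those of all genes tested (210 of 14228). Its part in the differences was not tested. Alternatives tried were normalization, probe set choice, filtering, the arrays fitted, the prior, a fold minimum, array weights, a block for the replicate number and leaving out each array in turn.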

Additional observations from a re-analysis of the deposited data

Results flagged for a closer look

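Of the 151 genes covered by the rule for named genes, 51 were called in opposite directions against the 10 nM control with siRNA 2 and siRNA 1, which share that control, and the difference itself was tested by the direct comparison. In 27, siRNA 2 lay above the control and siRNA 1 below it, with these differences between the siRNAs on the log2 scale: SLC7A11 (2.79), ARRDC3 (2.72), BTBD1 (2.23), GDE1 (1.93), NEFM (1.88), PRKAB2 (1.80), B3GALT1 (1.80), CTH (1.78), SLC6A6 (1.78), LRP8 (1.77), LONRF2 (1.76), ATP6AP1 (1.73), STC2 (1.43), LRP2 (1.37), ASNS (1.31), SRXN1 (1.30), SPRED1 (1.25), EN2 (1.22), SLC7A2 (1.18), GABARAPL1 (0.99), SLC1A3 (0.92), ISCA1 (0.91), SLC1A5 (0.83), HEY2 (0.82), GCLC (0.78), CYP51A1 (0.70) and PRKRA (0.66). In the other 24, siRNA 2 lay below the control and siRNA 1 above it: CALCB (−2.79), MYADM (−2.73), TES (−1.93), FAXDC2 (−1.90), MT1F (−1.81), TMEM179B (−1.81), IFI35 (−1.73), NEU1 (−1.31), LAMP1 (−1.26), BIRC5 (−1.23), IFIT1 (−1.18), CDKN1B (−1.05), ALDOC (−1.01), FZR1 (−0.93), KRT8 (−0.86), TARBP2 (−0.82), ATG13 (−0.76), TPP1 (−0.72), SYT1 (−0.72), IFI6 (−0.66), ATP6V1B2 (−0.66), DROSHA (−0.55), RPL13 (−0.47) and PSMC3 (−0.44). These genes were mostly named for their difference between the siRNAs, so their number is no estimate for other genes. The value of ISCA1 comes from the probe set called uncertain above, and its other probe set differed by 0.45.

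Probe sets that carried no single gene symbol were not among the genes tested. Fitted by themselves, 775 of 13163 (5.89%) were called between siRNA 2 and siRNA 1, with 321 higher and 454 lower. For the 100 nM against the 10 nM control, limma called 0 of them, and 704 had an unadjusted p under 0.05.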

How the results depend on the processing

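The count of 6836 called genes lay between 6080 and 7309 under the other normalization, probe set, prior, array weight and array choices, at 6210 without dim genes and at 5229 to 7152 when an array was left out (2658 to 3469 higher, 2570 to 3683 lower). Leaving out an array moved the 2-fold count between 473 and 505. Requiring a change above 1.5-fold lowered the count of called genes to 695, with 397 higher and 298 lower, and ended the call of LINC02893 (−0.93), whose value without an array ran from −1.07 to −0.79. TUT7 changed sign to 0.0016 with quantile normalization applied again and ran from −0.039 to 0.037 without an array, and DAPK1 ran from −0.014 to 0.10 without an array (−0.0084 without the first siRNA 2 array), none called. GAS1, LINC02872 and NFYCP2 were each called under some alternative, with lowest adjusted p-values of 0.0378, 0.0303 and 0.00848. The replicate number was not taken to pair siRNA 2 with siRNA 1, whose same-numbered arrays' deviations correlated at 0.0904, while those among the other groups and siRNA 2 correlated at 0.293 to 0.529, and with replicate number as a block 7777 genes were called (3662 higher, 4115 lower). The median of all genes lay between −0.09 and −0.00 in every setting run. Of 151 single genes, 75 kept their direction and call in every setting in which they were fitted. The 1.5-fold minimum ended the call of 70 genes besides LINC02893. Settings that altered only the spread could not change a direction. Some genes moved further in an alternative setting than when an array was left out. For example, as the mean of all probe sets of a gene, UHRF1 came to −0.78, BIRC5 to −0.93, AK4 to 0.80, SLC1A5 to 0.44 and CYP51A1 to 0.31. The direction of these means was kept. The less bright probe sets of these genes therefore differed less in that direction, and they were not described singly. Signal over background is unknown, which limits low genes most, and the siRNAs were each measured in 2 cultures of 1 line.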

Other observations

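The families in this section were picked by symbol after their values were seen, so their counts carry no test and describe only these arrays. Zinc finger genes with ZNF symbols, most of which encode DNA-binding proteins, were called higher with siRNA 2 in 203 of 494 (41.1%) and lower in 27 (5.47%), against 18.2% and 19.0% of all genes, with a median difference of 0.18. The higher count lay between 149 and 216 when an array was left out, and the lower count was 11 without the second siRNA 1 array. ZNF704 read 8.69 and 8.68 with siRNA 2, 7.17 and 7.21 with siRNA 1, and averaged 8.85 with the control (difference 1.49). ZNF134 read 8.25 and 8.44 with siRNA 2, 6.90 and 7.02 with siRNA 1, and averaged 8.02 with the control (difference 1.39). ZNF385A went the other way, with 7.75 and 7.57 with siRNA 2 and 8.75 and 8.84 with siRNA 1 (difference −1.14). Many ZNF genes share sequence, so single values are uncertain.

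Small nucleolar RNAs, which guide the modification of ribosomal RNA and mostly lie in introns of other genes, leaned lower. Of 176 SNORD and SNORA genes 53 (30.1%) were lower and 2 (1.14%) higher, with a median of −0.14. The SNORA lower count was 13 in place of 20 without the second siRNA 1 array, and the SNORA higher count was 4 without the first siRNA 2 array. SNORD52 read 8.76 and 8.75 with siRNA 2, 9.82 and 9.74 with siRNA 1, and averaged 9.26 with the control (difference −1.03). Metallothioneins, which bind zinc and copper, were lower in 8 of 15 and higher in 0, with 4 lower without the first siRNA 1 array and 5 without the second siRNA 2 array. MT1F was described above, MT1X averaged 8.76 with siRNA 2 and 9.42 with siRNA 1, and MT2A averaged 11.25 with siRNA 2 and 11.72 with siRNA 1. These genes are near-identical copies and may share signal. Among zinc transporters, 5 of 10 SLC30A exporters were higher and 0 lower, and 7 of 14 SLC39A importers were higher and 3 lower. The kinases HIPK2 and HIPK3 differed by 1.32 and 1.43, and SEPTIN3, a septin of nerve cells, by −1.50.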
